A study of Mus musculus with 34 samples.

Results

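Ceramide is completed by a desaturase, encoded by Degs1, which acts on dihydroceramide. The loss of Degs1 was examined in 1 knockout line, Degs1-KO clone1, set against the Scrambled control line. The comparison used 9 clone1 libraries and 3 Scrambled libraries of the 34 in the series, chosen by their labels, and tested 10805 genes that passed a filter on low counts. Both lines were mouse colon tumour organoids, 3-dimensional epithelial cultures, with the genotype given as AKP. Clone1 had been made with a CRISPR ribonucleoprotein against Degs1, and the treatment of the control line is labelled Scrambled. A second knockout line, Degs1-KO clone2 (9 libraries), and the control line of the YAP knockdown experiment, shControl (10 libraries), both of AKP genotype, were set beside clone1, and shControl also took the place of Scrambled as an alternative control. The 2 knockouts and Scrambled were treated here as 1 line each, so n counts libraries, and an effect of the knockout and a property of 1 line cannot be told apart. Nothing in the labels states that replicates came from separate cultures, so p-values measure library-to-library spread, which may be technical.

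The surface of the colon is lined by absorptive colonocytes, which take up salt, water and short-chain fatty acids through a brush border of microvilli and detoxify what they absorb. They arise from stem cells at the base of the crypt that are kept dividing by Wnt signals, alongside mucus-secreting goblet cells and rarer secretory cells. Tumour epithelium of the colon keeps part of this programme.

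Library totals ran from 883253 to 5346951 counts in clone1, with replicate 2 the shallowest, and from 4152399 to 6321118 in Scrambled. Each library resembled another library of its own line most closely. Clone1 replicates 7 to 9 lay nearest one another, and the labels give no batch or date for them. Levels of single genes are given as CPM, after TMM scaling of the library totals. Summed levels of gene lists are CPM of the library totals without that scaling. Differences are log2 values, clone1 minus Scrambled, with their standard error. A gene passed the threshold when its two-sided p from the quasi-likelihood test of edgeR, adjusted by Benjamini-Hochberg over all genes tested, was under 0.05. By that rule 1444 genes differed, 13.4% of those tested: 688 (6.37%) were higher and 756 (7%) lower in clone1, and 517 of them differed by at least 1 on the log2 scale. The median difference over all genes tested was 0.022. The label epithelial was met by its markers. The summed level of 11 epithelial markers was 6533 to 7796 CPM in clone1 (median 6758), against 5935 to 6104 CPM in Scrambled, and 3 of them (Epcam, Krt8 and Krt19) were higher in clone1 and none lower. Of 12 fibroblast markers, 8 had no count in clone1 and 10 none in Scrambled, with sums up to 0.748 CPM in clone1 and 2.17 CPM in Scrambled. Of 12 leukocyte markers, 7 had no count in clone1 and 7 none in Scrambled, with sums up to 0.869 CPM in clone1 and 1.20 CPM in Scrambled. The 10 endothelial markers summed to 5.96 to 12.2 CPM in clone1 and 5.08 to 14.9 CPM in Scrambled.

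Degs1 itself (ENSMUSG00000038633, chromosome 1, 182275772 to 182282804, mm10) was low in both lines and lower in clone1. It stood at 3.21, 1.20, 3.29, 0.894, 3.30, 0.856, 1.89, 3.46 and 4.79 CPM in clone1 replicates 1 to 9, against 8.52, 5.27 and 10.7 CPM in the Scrambled libraries. No clone1 library reached the lowest Scrambled library. The difference was -1.57 ± 0.39 (edgeR adjusted p = 0.00697). Without Scrambled replicate 3 it was -1.33 and did not pass (edgeR adjusted p = 0.084). Blocking on replicate number gave -1.62, which did not pass either (edgeR adjusted p = 0.0557). Scrambled has replicates 1 to 3 alone, so this replicate block, here and below, compares only clone1 replicates 1 to 3 with Scrambled. Degs1 averaged 1.71 ± 0.893 CPM in the 9 clone2 libraries, and the 2 clones differed by 0.58 ± 0.37, which did not pass (edgeR adjusted p = 0.191). The counts were per gene, so they do not show whether the remaining transcripts carried the edited sequence.

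Some genes of absorptive colonocytes were higher in clone1. Of 25 genes on the list, all were in the table and 16 passed the filter. Car4, Slc26a3, Aqp8, Guca2a, Guca2b, Clca4a, Clca4b, Saa1 and Dhrs9 were too low in both lines to be tested. Of these 16, 8 were higher in clone1, 1 was lower and 7 did not pass, against 6.37% higher and 7% lower among all genes tested. The median difference of the 16 was 1.18. Some of the 8, named below, passed the filter only through their level in clone1. In 6 of the 16 every clone1 library lay above every Scrambled library, which held for 5.19% of all genes tested. In bulk RNA, more cells of a type and more RNA per cell cannot be told apart. The summed level of all 25 genes was 4441 to 6629 CPM in clone1 (median 6181), against 3931 to 4195 CPM in Scrambled. Car1 alone averaged 1125 CPM in clone1 and 145 CPM in Scrambled, after the TMM scaling that the sums lack. None of the 16 lies on chromosome 1, 4 or 9, whose genes shifted as groups, as described further on.

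The windows around the transcription start of 3 of these genes are shown because the genes rose together. They run from 250 bases before to 50 after the start and come from RefSeq on GRCm38.p6, 5′ to 3′ on the gene's strand. Capitals mark the letters CAAAGTCCA, a core of the motif bound by HNF4 factors, or TTTATNG, a core of that bound by CDX factors, searched on both strands. The windows are Cyp2c55 at chr19:39006769-39007068, plus strand, Muc13 at chr16:33794239-33794538, plus strand, and Krt20 at chr11:99438104-99438403, minus strand. Muc13 has 2 windows in the table, and the one that holds a match is printed.
Cyp2c55: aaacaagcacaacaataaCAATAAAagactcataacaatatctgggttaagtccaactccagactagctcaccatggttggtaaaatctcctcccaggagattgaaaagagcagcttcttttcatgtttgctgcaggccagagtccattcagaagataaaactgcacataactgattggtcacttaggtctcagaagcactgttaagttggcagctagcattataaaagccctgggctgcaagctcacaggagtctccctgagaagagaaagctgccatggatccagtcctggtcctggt
Muc13: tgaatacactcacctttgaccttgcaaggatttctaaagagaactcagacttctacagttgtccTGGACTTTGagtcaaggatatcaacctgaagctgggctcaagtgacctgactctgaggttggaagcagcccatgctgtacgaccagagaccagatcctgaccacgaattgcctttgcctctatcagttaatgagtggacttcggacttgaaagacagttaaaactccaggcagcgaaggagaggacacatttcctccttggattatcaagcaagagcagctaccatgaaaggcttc
Krt20: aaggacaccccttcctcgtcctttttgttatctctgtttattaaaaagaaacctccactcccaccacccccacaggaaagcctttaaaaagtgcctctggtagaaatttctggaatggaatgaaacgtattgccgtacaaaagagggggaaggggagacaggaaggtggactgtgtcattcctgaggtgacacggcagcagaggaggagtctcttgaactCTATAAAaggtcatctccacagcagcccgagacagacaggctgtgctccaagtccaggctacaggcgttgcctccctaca
The CDX letters were found in windows of 5 of the 7 risen colonocyte genes that had one (Ceacam20, Cyp2c55, Emp1, Fabp2 and Krt20), in 12.5% of the 27025 genes with a window and in 8.37% of the 8348 tested genes with one. Read on the opposite strand they can overlap the letters TATAAA of a TATA box, as in Krt20. The HNF4 letters were found in 1 of the 7, Muc13, in 0.555% of all genes with a window and in 0.467% of tested genes with one. These matches describe letters in a window and were not measured as binding.

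Cyp2c55, a cytochrome P450 of the colon surface, showed the largest difference on the list. It ranged from 69.9 to 221 CPM in the clone1 libraries, with a median of 148, against 11.9, 9.05 and 9.85 CPM in the Scrambled libraries. All 9 clone1 libraries lay above all 3 Scrambled libraries. The difference was 3.78 ± 0.49 (edgeR adjusted p = 0.000516).

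Car1, the carbonic anhydrase of colon surface cells, was the most abundant of the risen genes. It ranged from 577 to 1497 CPM in the clone1 libraries, with a median of 1357, against 153, 134 and 148 CPM in the Scrambled libraries. The groups did not overlap, and the difference was 2.96 ± 0.41 (edgeR adjusted p = 0.000841). Muc13, a transmembrane mucin of the apical surface, had 191 to 365 CPM in clone1 (median 330.2), against 89.1, 96.9 and 95.1 CPM in Scrambled. All clone1 libraries were again higher, by 1.64 ± 0.22 (edgeR adjusted p = 0.000118). Krt20, the keratin of differentiated colon cells, had 7.56 to 34.7 CPM in clone1 (median 17.4), against 5.60, 4.11 and 5.35 CPM in Scrambled, and every clone1 library was above every Scrambled library (1.95 ± 0.42, edgeR adjusted p = 0.00408).

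Fabp2, the intestinal fatty acid binding protein, was low in both lines. It had 3.37 to 14.3 CPM in clone1 (median 8.81), against 1.46, 2.96 and 2.14 CPM in Scrambled, without overlap, and differed by 1.85 ± 0.42 (edgeR adjusted p = 0.0038). Muc3, another membrane mucin, had 0.856 to 8.17 CPM in clone1 (median 3.91), against 0.730, 0.823 and 1.93 CPM in Scrambled. The lowest clone1 library lay below the highest Scrambled library, and the difference was 1.84 ± 0.55 (edgeR adjusted p = 0.0258). Ceacam20, an adhesion protein of the brush border, had 0.432 to 4.11 CPM in clone1 (median 1.89), against 0, 0.494 and 0 CPM in Scrambled, with only 73 counts over the clone1 libraries and 3 over the Scrambled libraries. The ratio of its summed rates, clone1 over Scrambled, was 10.4, with a 95% exact counting interval of 3.43 to 51.7 (edgeR adjusted p = 0.0148). Neither gene passed in every fit. Without Scrambled replicate 1 or 2, Muc3 stood at 1.62 in both cases (edgeR adjusted p = 0.135 and 0.149), and without Scrambled replicate 1 or 3, Ceacam20 had edgeR adjusted p = 0.0949 and 0.0881. Fabp2, Muc3 and Ceacam20 were too low in Scrambled for the filter and were tested only because clone1 was high enough.

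Emp1, a small membrane protein of differentiated epithelium, rose by a smaller step, with 98.4 to 144 CPM in clone1 (median 117), against 83.5, 84.2 and 72.8 CPM in Scrambled (0.54 ± 0.12, edgeR adjusted p = 0.00409). Emp1 is also on the list of revival and fetal-like genes. Ceacam1, an adhesion receptor of the apical membrane, was the member that fell. It had 722 to 838 CPM in clone1 (median 811), against 1051, 1019.9 and 1173 CPM in Scrambled, without overlap, and the difference was -0.45 ± 0.083 (edgeR adjusted p = 0.000423). Against shControl in place of Scrambled it stood at 0.14 and did not pass (edgeR adjusted p = 0.202).

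The 7 members that did not pass had differences on both sides of 0. Tmigd1 stood at 2.25 ± 0.80, Mxd1 at 0.71 ± 0.28, Plac8 at 0.54 ± 0.18, Car2 at 0.26 ± 0.15 and Lypd8 at 0.085 ± 0.39. Selenbp1 stood at -0.077 ± 0.12. Plac8 was nearest the threshold (edgeR adjusted p = 0.0503). Car2 was among the most abundant, with 1726 to 3099.9 CPM in clone1 (median 2206), against 1877, 1889 and 1860.3 CPM in Scrambled, and the groups overlapped.

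**Figure D1:**
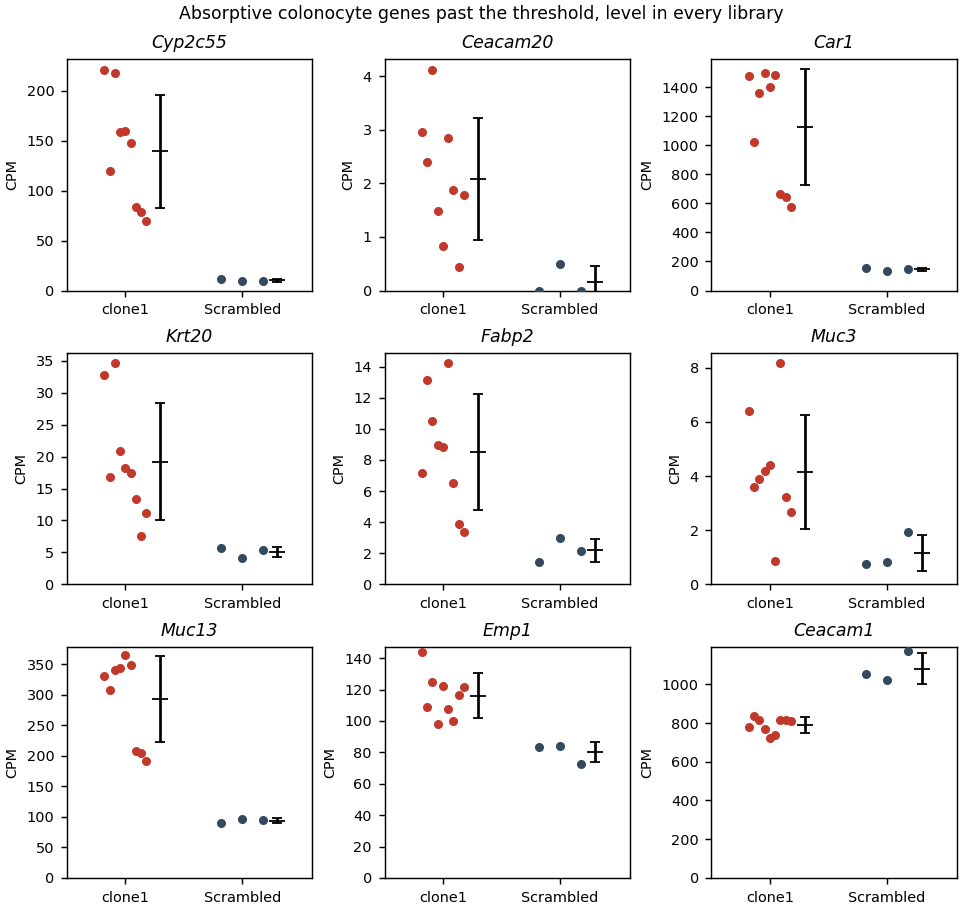
Level in CPM of the 9 absorptive colonocyte genes past the threshold, one panel a gene, with 1 point a library (clone1 in red, replicates 1 to 9 from left to right, and Scrambled in grey) and the mean ± SD beside them. Clone1 replicates 7 to 9 lie below replicates 1 to 6 for Cyp2c55, Car1, Krt20, Fabp2 and Muc13, and above Scrambled; Ceacam1 is lower in clone1.

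Clone1 was not uniform in these genes. For Cyp2c55, Car1, Krt20, Fabp2 and Muc13, all of replicates 7 to 9 lay below all of replicates 1 to 6. Car1 was 577 to 666 CPM in replicates 7 to 9 and 1022 to 1497 CPM in replicates 1 to 6. Cyp2c55 was 69.9 to 84.0 CPM in replicates 7 to 9 and 120 to 221 CPM in replicates 1 to 6. With replicates 7 to 9 alone against Scrambled, Cyp2c55 differed by 2.93, Car1 by 2.12, Muc13 by 1.11 and Krt20 by 1.11, all past the threshold, whereas Fabp2 stood at 1.03 and did not pass (edgeR adjusted p = 0.144). Lypd8, an antimicrobial protein of the surface epithelium, stood at -0.77 in that fit, past the threshold in the opposite direction to its value in the full comparison (edgeR adjusted p = 0.0498).

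Most of these genes were also higher in clone1 than in clone2. Both knockouts were compared with the same Scrambled libraries, so their values are given side by side, and the difference between the clones was tested in 1 fit of 21 libraries. That test called 5649 of 11514 genes (49.1%), 2932 of them higher in clone1 (25.5%) and 2717 lower (23.6%). Of the 16 colonocyte genes, 12 were higher in clone1 than in clone2 and none was lower, with a median difference of 1.57. Cyp2c55 stood at 3.78 in clone1 and at -2.36 ± 0.60 in clone2, each against Scrambled, and clone1 exceeded clone2 by 6.14 ± 0.43 (edgeR adjusted p = 6.79e-10). Muc13 stood at 1.64 in clone1 and -2.55 ± 0.33 in clone2, a difference of 4.20 ± 0.28 (edgeR adjusted p = 3.86e-10). Krt20 and Muc3 likewise were positive in clone1 (1.95 and 1.84) and negative in clone2 (-1.78 and -1.82), with clone differences of 3.73 ± 0.31 (edgeR adjusted p = 2.28e-11) and 3.66 ± 0.49 (edgeR adjusted p = 9.97e-08). Car1 was positive in both, at 2.96 in clone1 and 1.42 in clone2, and clone1 was higher by 1.54 ± 0.29 (edgeR adjusted p = 0.000217). Fabp2 was the exception among the risen genes. It stood at 1.85 in clone1 and 2.29 in clone2, and the clones differed by -0.45 ± 0.29, which did not pass (edgeR adjusted p = 0.212). Lypd8 and Plac8, which did not pass against Scrambled, were higher in clone1 than in clone2 by 3.47 (edgeR adjusted p = 1.2e-09) and 1.61 (edgeR adjusted p = 1.36e-06), and both had fallen in clone2 against Scrambled.

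**Figure D2:**
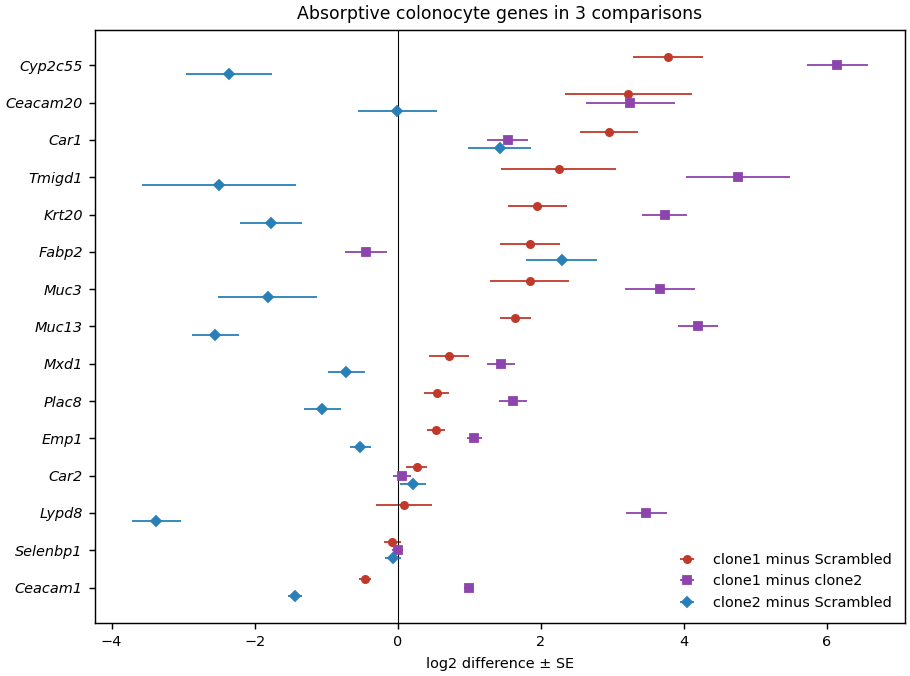
Log2 difference ± SE of 15 of the 16 absorptive colonocyte genes tested, for clone1 minus Scrambled (red circles), clone1 minus clone2 (purple squares) and clone2 minus Scrambled (blue diamonds), with genes ordered by the first. Cyp2c55, Krt20, Muc3 and Muc13 lie right of 0 in clone1 and left of 0 in clone2, and Fabp2 lies right of 0 in both.

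The lists of ion and solute transport, xenobiotic metabolism and brush border genes also held more higher than lower members. Among all genes tested 6.37% were higher and 7% lower. Of 14 genes of ion and solute transport tested, 7 were higher and none lower (median 0.61). Otop1, a proton channel, had 12.1 to 28.2 CPM in clone1 (median 23.5), against 5.36, 6.91 and 12.9 CPM in Scrambled (1.43 ± 0.27, edgeR adjusted p = 0.000613). Slc16a1, the monocarboxylate carrier that takes up butyrate, had 76.7 to 126 CPM in clone1 (median 97.4), against 44.1, 45.7 and 55.5 CPM in Scrambled, without overlap (1.04 ± 0.14, edgeR adjusted p = 1.17e-05). Abcb1a, the drug efflux pump of the apical membrane, had 101 to 149 CPM in clone1 (median 124), against 63.1, 47.2 and 69.6 CPM in Scrambled, also without overlap (1.01 ± 0.14, edgeR adjusted p = 1.12e-05). The sulfate carrier Slc26a2 had 7.16 to 18.8 CPM in clone1 (median 11.8), against 4.63, 4.61 and 6.85 CPM in Scrambled (1.19 ± 0.29, edgeR adjusted p = 0.0058). The other 3 that rose were the sodium-potassium-chloride carrier Slc12a2, the sodium pump subunit Atp1b1 and the organic anion exporter Abcc3. The transport list is not limited to absorption, and Slc12a2 is also on the crypt-base stem cell list. Without Scrambled replicate 1 or 2, Slc26a2 had edgeR adjusted p = 0.0522 and 0.0575.

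Of 14 genes of xenobiotic metabolism tested, 4 were higher and 1, Gstm1, was lower (median 0.46). The cytochromes P450 Cyp2c65, Cyp3a13 and Cyp2s1 rose by 2.72 ± 0.47 (edgeR adjusted p = 0.000213), 1.69 ± 0.31 (edgeR adjusted p = 0.000423) and 0.98 ± 0.20 (edgeR adjusted p = 0.00163). The glucuronosyltransferase Ugt2b34 rose by 1.08 ± 0.29 (edgeR adjusted p = 0.014). Cyp2c65 had 3.58 to 9.38 CPM in clone1 (median 6.26), against 0.243, 1.32 and 1.07 CPM in Scrambled, and the groups did not overlap. Cyp2c65 was too low in Scrambled for the filter and was tested only because clone1 was high enough. Ugt2b34 was less firm, with edgeR adjusted p = 0.104 without Scrambled replicate 2 and 0.0979 without Scrambled replicate 3, and it stood at -0.37 against shControl. Of 18 brush border genes, 4 were higher and none lower (median 0.31), namely Cdhr2, Tm4sf20, Anks4b and Eps8. Cdhr2, a cadherin that links microvilli, had 32.2 to 83.4 CPM in clone1 (median 62.9), against 33.6, 30.3 and 33.2 CPM in Scrambled (0.93 ± 0.22, edgeR adjusted p = 0.00809). The tetraspan protein Tm4sf20 had 219 to 408 CPM in clone1 (median 328), against 172, 186 and 180.1 CPM in Scrambled, without overlap (0.76 ± 0.18, edgeR adjusted p = 0.00892). Cdhr2 did not pass without Scrambled replicate 2 (edgeR adjusted p = 0.0626), Tm4sf20 did not in the fit of 21 libraries (0.0817), and Anks4b and Eps8 did not pass when any 1 Scrambled library was left out (0.0578 to 0.213 and 0.0703 to 0.19).

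Set against clone2, clone1 was higher in 12 of 14 transport genes, 10 of 14 xenobiotic genes and 13 of 18 brush border genes, and lower in 0, 1 and 1, against backgrounds of 25.5% and 23.6%. Abcb1a stood at 1.01 in clone1 and -3.77 in clone2 against Scrambled, a clone difference of 4.79 ± 0.16 (edgeR adjusted p = 1.28e-23). Tm4sf20 stood at 0.76 in clone1 and -4.29 in clone2, a clone difference of 5.05 ± 0.24 (edgeR adjusted p = 1.21e-12). Otop1 stood at 1.43 in clone1 and -3.64 in clone2, a clone difference of 5.07 ± 0.28 (edgeR adjusted p = 1.46e-17).

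Transcription factors of the intestine moved in both directions. Of 21 tested, 5 were higher (Klf4, Klf5, Pparg, Sox9 and Nr1i2) and 5 lower, among them Isx, Hnf4g, Ascl2 and Elf3, with a median of 0.16. The shares among all genes tested were 6.37% higher and 7% lower. Isx, an intestinal homeobox factor that represses carotenoid uptake, fell furthest. It had 1.73 to 4.85 CPM in clone1 (median 3.77), against 26.0, 26.7 and 26.1 CPM in Scrambled, without overlap (-3.02 ± 0.25, edgeR adjusted p = 1.46e-09). Hnf4g, a nuclear receptor paired with Hnf4a in enterocytes, had 0 to 1.73 CPM in clone1 (median 0.570), against 3.90, 3.95 and 8.35 CPM in Scrambled (-2.90 ± 0.52, edgeR adjusted p = 0.000337). Hnf4g was too low in clone1 for the filter and was tested only because Scrambled was high enough. Hnf4a itself stood at 0.35 and Cdx2 at -0.20, neither past the threshold. Nr1i2, the pregnane X receptor that induces P450 enzymes, had 3.59 to 15.97 CPM in clone1 (median 9.01), against 3.41, 5.27 and 3.21 CPM in Scrambled (1.29 ± 0.32, edgeR adjusted p = 0.00739). With the replicate block Hnf4g and Nr1i2 did not pass (edgeR adjusted p = 0.0678 and 0.0841), nor did Nr1i2 without Scrambled replicate 1 or 3 (0.0593 and 0.0524).

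Several genes of crypt-base stem cells were lower in clone1. Of 18 tested, 5 fell (Ascl2, Lrig1, Tnfrsf19, Lgr5 and Cdca7), 3 rose (Prom1, Slc12a2 and Sox9) and the median was -0.11. For this list and the Wnt targets below, the shares among all genes tested were 6.37% higher and 7% lower. Ascl2, the master factor of crypt stem cells, had 29.4 to 116 CPM in clone1 (median 52.0), against 258, 267 and 112 CPM in Scrambled. The lowest Scrambled library lay within the range of clone1. The difference for Ascl2 was -1.90 ± 0.35 (edgeR adjusted p = 0.00457). Lgr5, the R-spondin receptor that marks these cells, had 5.37 to 20.36 CPM in clone1 (median 10.1), against 26.5, 19.9 and 26.8 CPM in Scrambled, and the difference was -1.04 ± 0.26 (edgeR adjusted p = 0.00697). Lrig1, a brake on ErbB receptors, fell by 1.25 ± 0.26 (edgeR adjusted p = 0.00143) and the TNF receptor family member Tnfrsf19 by 1.14 ± 0.17 (edgeR adjusted p = 2.22e-05). Of 18 targets of Wnt signalling tested, 2 were lower, Lgr5 and Ascl2, and 2 higher, Bambi (0.98 ± 0.30, edgeR adjusted p = 0.0411) and Dkk2 (0.79 ± 0.24, edgeR adjusted p = 0.0251), with a median of -0.031. Bambi did not pass when any 1 Scrambled library was left out (edgeR adjusted p from 0.066 to 0.157), nor Dkk2 without Scrambled replicate 1 or 3 (0.153 and 0.129), and against shControl they stood at -0.28 and -0.31. The Wnt feedback genes Axin2 and Rnf43 stood at -0.15 and -0.05 without passing. Lgr5 was lower still in clone2, and clone1 exceeded clone2 by 3.27 ± 0.28 (edgeR adjusted p = 1.99e-12), whereas Ascl2 was lower in clone1 than in clone2, with a difference of -1.27 ± 0.32 (edgeR adjusted p = 0.00284). Lgr5 did not pass without Scrambled replicate 1 (-0.99, edgeR adjusted p = 0.0537) and stood at 0.59 against shControl. Ascl2 did not pass with the replicate block (-1.66, edgeR adjusted p = 0.357) or with clone1 replicates 7 to 9 alone (-1.81, edgeR adjusted p = 0.0692). Against shControl, Ascl2 stood at -0.76 and Lrig1 at -0.48, and neither passed (edgeR adjusted p = 0.135 and 0.183).

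Few secretory markers were detected well enough to be tested. Among all genes tested 6.37% were higher and 7% lower. Of 6 goblet cell genes tested, 2 were lower, the kallikrein Klk1 (-1.26 ± 0.37, edgeR adjusted p = 0.0222) and the mucin-folding disulfide isomerase Agr2 (-0.31 ± 0.094, edgeR adjusted p = 0.0258), and none was higher. Agr2 did not pass when any 1 Scrambled library was left out (edgeR adjusted p from 0.0864 to 0.109), nor Klk1 without Scrambled replicate 2 or 3 (0.205 and 0.0686). Of 5 Paneth and deep crypt secretory genes tested, Pla2g2a and Mmp7 were lower and Reg4 higher. Reg4, a secreted lectin, stood at 0.77 ± 0.21 (edgeR adjusted p = 0.0143). Its call ended when Scrambled replicate 2 or 3 was left out (edgeR adjusted p = 0.106 and 0.119) and in the fit of 21 libraries (edgeR adjusted p = 0.22). With the replicate block Reg4 was at 0.31 (edgeR adjusted p = 0.509) and against shControl at 0.057 (edgeR adjusted p = 0.885). Mmp7, the matrix protease that activates defensins, had 5.99 to 14.9 CPM in clone1 (median 11.5), against 41.9, 53.1 and 36.6 CPM in Scrambled, without overlap (-1.90 ± 0.18, edgeR adjusted p = 2.9e-08). The peptide hormone Pyy was the 1 of 3 enteroendocrine genes to rise, with 1.05 to 6.85 CPM in clone1 (median 4.13), against 1.22, 0.329 and 0 CPM in Scrambled (3.01 ± 0.73, edgeR adjusted p = 0.00593). Pyy was too low in Scrambled for the filter and was tested only because clone1 was high enough. It did not pass without Scrambled replicate 2 (edgeR adjusted p = 0.0554), and against shControl the difference was 0.24 (edgeR adjusted p = 0.865). Of 3 tuft cell genes, the cyclooxygenase Ptgs1 was lower (-3.07 ± 0.62, edgeR adjusted p = 0.00118) and the prostaglandin D synthase Hpgds higher (1.69 ± 0.53, edgeR adjusted p = 0.0321), and Hpgds did not pass without Scrambled replicate 1 or 2 (0.181 and 0.155), nor Ptgs1 with the replicate block (-2.79, edgeR adjusted p = 0.0685).

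A set of 27 genes was strongly reduced in clone1. They were chosen from the same contrast, as genes past the threshold with a Scrambled mean of at least 5 CPM, a clone1 mean at most 1 part in 8 of it and no overlap between libraries, so their values are a description and the set carries no test. Where one of them, or of the 16 strongly gained genes, belongs to a gene list, the adjusted p given there is that of the fit over all genes. Just inside the rule stood Hacd4 with an 8.03-fold ratio of the Scrambled mean to the clone1 mean, and just outside stood Gm2895 with 7.85. Means of the 27 ran from 0.166 to 14.2 CPM in clone1 and from 5.27 to 132 CPM in Scrambled, and 16 of the 27 had no count in at least 1 clone1 library. Most of these 16 had no count in replicate 2, the shallowest library with 883253 counts, and Gstt2 had none there alone. The 27 genes were Rps6ka6, Hoxb7, Pigr, Asrgl1, 2210016F16Rik, Rassf4, Trim35, Tstd1, Bex1, Decr1, Ociad2, Gstt2, Cpne8, Pla2g5, Enpp1, Pla2g2a, Kctd14, Cldn15, Gmpr, Fundc2, Igf2bp3, Car9, Ncmap, Arl14ep, Cldn2, Hnf4g and Hacd4.

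The start windows of Fundc2 and Gmpr are shown because both genes were at least 8-fold lower in clone1 than in Scrambled and kept in clone2. Both come from RefSeq on GRCm38.p6, Fundc2 at chrX:75382149-75382448, plus strand, and Gmpr at chr13:45507194-45507493, plus strand, and capitals mark the CG dinucleotides.
Fundc2: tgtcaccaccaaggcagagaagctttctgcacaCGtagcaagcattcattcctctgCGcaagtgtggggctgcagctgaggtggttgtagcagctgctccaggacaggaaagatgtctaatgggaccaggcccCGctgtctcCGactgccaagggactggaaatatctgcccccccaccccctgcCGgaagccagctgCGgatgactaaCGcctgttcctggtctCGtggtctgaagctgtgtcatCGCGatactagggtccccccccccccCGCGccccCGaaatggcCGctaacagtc
Gmpr: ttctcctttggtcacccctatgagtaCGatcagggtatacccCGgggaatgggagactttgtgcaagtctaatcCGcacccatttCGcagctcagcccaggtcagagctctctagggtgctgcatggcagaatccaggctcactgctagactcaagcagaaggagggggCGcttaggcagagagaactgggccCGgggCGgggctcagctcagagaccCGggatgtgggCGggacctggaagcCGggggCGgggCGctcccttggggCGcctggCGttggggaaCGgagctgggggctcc
Fundc2 held 14 CG and Gmpr 15. Over the 20 strongly reduced genes with a window the median was 12.5 CG, over the 12 strongly gained genes with one it was 3.5, and over the 8348 tested genes with one it was 22. Methylation of these sites was not measured.

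The clones differed in some of these genes. Of the 27, 11 were lower in clone1 than in clone2 in the test between the clones, 6 were higher and 10 did not pass, against 23.6% lower and 25.5% higher among all genes. That test used the clone1 libraries that had chosen the genes, so it is not independent of the choice, and differences are given without a p. Against Scrambled, 19 of the 27 were past the threshold and lower in clone2 too, none was higher and 8 did not pass. The Scrambled libraries had also chosen the genes, so these counts are a description. Fundc2, a protein of the outer mitochondrial membrane, is the most abundant of those kept in clone2. It had 7.19 to 14.7 CPM in clone1 (median 10.4), against 98.8, 124 and 105 CPM in Scrambled. The mean in clone2 was 121 ± 15.7 CPM, and the log2 difference, clone1 minus clone2, was -3.59 ± 0.12. Hoxb7, a homeobox factor of posterior identity, was at 0.247, 1.20, 0.822, 0.298, 1.10, 0.570, 0.838, 1.296 and 0.177 CPM in clone1 replicates 1 to 9, against 22.2, 18.9 and 19.7 CPM in the Scrambled libraries. Clone2 averaged 20.01 ± 4.93 CPM, with a clone difference of -4.86 ± 0.25. All 9 clone1 libraries lay below every Scrambled library.

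Gmpr, the reductase that turns GMP into IMP, had 0 to 1.71 CPM in clone1 (median 0.648), against 7.79, 10.04 and 9.21 CPM in Scrambled, and clone2 averaged 13.7 CPM (log2 difference -4.18 ± 0.52). Decr1, a mitochondrial enzyme needed to oxidise polyunsaturated fatty acids, had 0.494 to 2.85 CPM in clone1 (median 1.20), against 18.7, 24.0 and 25.5 CPM in Scrambled, and clone2 averaged 14.1 CPM (log2 difference -3.28 ± 0.23). Decr1 was lower in clone2 than in Scrambled as well, at -0.64 ± 0.23. Hacd4, an enzyme of very long-chain fatty acid elongation, had 0 to 1.79 CPM in clone1 (median 0.648), against 4.14, 6.09 and 5.57 CPM in Scrambled, and clone2 averaged 4.93 CPM (log2 difference -2.81 ± 0.39). Kctd14, Arl14ep and Ncmap were also lower in clone1 than in clone2, with log2 differences of -3.10 ± 0.33, -2.41 ± 0.31 and -2.31 ± 0.48. Pigr, the receptor that carries IgA across epithelium, Asrgl1, an asparaginase, and Trim35, a ubiquitin ligase, stood between. Their clone2 means of 1.89, 2.01 and 2.39 CPM lay below Scrambled and above clone1, with clone differences of -2.80 ± 0.64, -3.03 ± 0.55 and -3.17 ± 0.58. Trim35 did not pass against Scrambled in DESeq2 (adjusted p = 0.0691).

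Other strongly reduced genes were also low in clone2. Rps6ka6, a ribosomal S6 kinase on the X chromosome, had 0 to 0.570 CPM in clone1 (median 0), against 7.30, 6.25 and 8.35 CPM in Scrambled, with 5 of the 9 clone1 libraries at 0 and a clone2 mean of 0.0558 CPM. Ociad2 had 0.987 to 4.79 CPM in clone1 (median 1.71), against 19.7, 31.1 and 28.9 CPM in Scrambled, and its clone2 mean was 1.22 CPM. The glutathione transferase Gstt2 had 0 to 1.997 CPM in clone1 (median 1.26), against 19.5, 19.3 and 21.8 CPM in Scrambled, with a clone2 mean of 0.938 CPM. The log2 differences between the clones were 1.38 ± 0.91, 0.46 ± 0.31 and 0.50 ± 0.38 for these 3, none past the threshold. Car9, the hypoxia-induced carbonic anhydrase, had 8.64 to 20.5 CPM in clone1 (median 14.7), against 128, 129.99 and 136 CPM in Scrambled, and fell further in clone2, with a mean of 1.36 CPM. Pla2g2a, a secreted phospholipase of crypt cells, had 3.59 to 8.64 CPM in clone1 (median 6.66), against 82.8, 80.5 and 73.0 CPM in Scrambled, and its clone2 mean was 3.33 CPM. Clone1 exceeded clone2 by 3.35 ± 0.22 for Car9 and by 0.95 ± 0.20 for Pla2g2a on the log2 scale. The annotation types Pla2g2a as a polymorphic pseudogene.

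The 27 genes lay on 14 chromosomes. Of them 4 were on X, which held 2.79% of all genes tested, and 8 on chromosomes 1, 4 and 9, which held 17.5%. Their 53 nearest tested neighbours, on either side, had a median difference of -0.12, and 7 were lower and 1 was higher in clone1, against 7% lower and 6.37% higher among all genes. Of the 7 lower neighbours 6 were on chromosome 4, and 2, Pla2g5 and Pla2g2a, were themselves among the 27. Pla2g5 and Pla2g2a are neighbours on chromosome 4, and Pla2g2f beside them stood at -1.49 ± 0.27 (edgeR adjusted p = 0.000371), while Pla2g2e, next on the other side, stood at 0.27 ± 0.61 (edgeR adjusted p = 0.83). Hoxb7 fell while Hoxb9 stood at -0.53 and Hoxb13 at 0.36, neither past the threshold. Of 7 Hox genes tested, Hoxb7, Hoxa7 (-2.25 ± 0.32, edgeR adjusted p = 1.77e-05) and Hoxa10 (-0.91 ± 0.19, edgeR adjusted p = 0.00172) were lower and none was higher. In place of Scrambled, shControl gave 17 strongly reduced genes by the same rule, and for 4 of the 27 the shControl mean lay at or below the highest clone1 library.

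**Figure D3:**
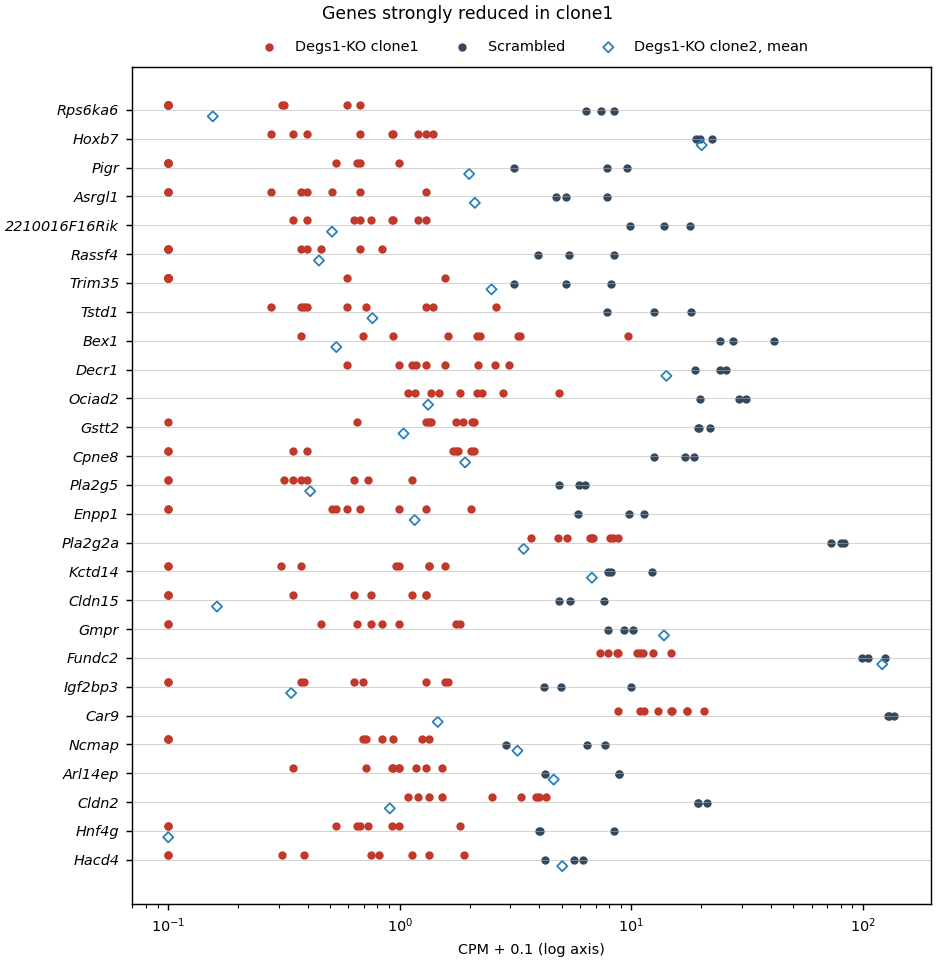
Level of each of the 27 strongly reduced genes, as CPM + 0.1 on a log axis, in every clone1 library (red) and every Scrambled library (grey), with the clone2 mean as an open blue diamond. Fundc2, Hoxb7, Gmpr and Hacd4 have clone2 means among the Scrambled libraries or above them, and Rps6ka6, Ociad2, Gstt2 and Car9 have clone2 means within or below the clone1 libraries.

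By the mirror rule 16 genes were strongly gained: Slc14a2, Hao2, Fabp4, Cyp2c55, Krt15, Pid1, Tfap2a, Lgals7, S100a8, Krt31, Krt87, Abcc2, Dner, Krt32, Krt84 and Pros1. Just inside stood Pros1 with 8.03-fold and just outside Car1 with 7.76-fold, clone1 mean over Scrambled mean. Of the 16, 9 were higher in clone1 than in clone2, 5 lower and 2 did not pass, in the same test and with the same limit. Against Scrambled, 10 of the 16 were past the threshold and higher in clone2 too, 4 were lower and 2 did not pass. S100a8, a subunit of calprotectin, had 115 to 242 CPM in clone1 (median 162), against 19.0, 14.2 and 14.6 CPM in Scrambled. Its clone2 mean was 6.50 CPM, and clone1 was higher by 4.73 ± 0.33 on the log2 scale. Its partner S100a9 stood at 1.71 in clone1 and did not pass. Abcc2, an export pump for conjugated drugs, had 6.69 to 28.7 CPM in clone1 (median 17.1), against 1.70, 1.48 and 2.36 CPM in Scrambled, and its clone2 mean was 0.330 CPM (log2 difference 5.60 ± 0.38). Lgals7, a galectin of stratified epithelia, had 2.71 to 12.7 CPM in clone1 (median 7.13), against 0.974, 0.329 and 0.643 CPM in Scrambled, and its clone2 mean was 0.758 CPM (log2 difference 3.18 ± 0.45). Hao2, a peroxisomal hydroxyacid oxidase, had 4.47 to 13.1 CPM in clone1 (median 6.56), against 0.487, 0 and 0.857 CPM in Scrambled, and no count in any clone2 library.

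Slc14a2, a urea transporter known from the kidney, had 3.95 to 14.05 CPM in clone1 (median 9.87), against 0.487, 0.329 and 0.214 CPM in Scrambled. Fabp4, the fatty acid binding protein of fat cells, had 34.6 to 97.2 CPM in clone1 (median 85.0), against 5.36, 6.25 and 2.57 CPM in Scrambled. For both genes all clone1 libraries were higher, and the log2 differences between the clones, 0.49 ± 0.37 and 0.37 ± 0.22, were not past the threshold. Pid1, an adaptor that dampens insulin signalling, had 10.8 to 35.7 CPM in clone1 (median 23.8), against 3.16, 1.81 and 1.07 CPM in Scrambled, and was higher still in clone2 at 64.4 CPM (log2 difference -1.37 ± 0.15). The transcription factor Tfap2a of ectoderm had 2.66 to 8.02 CPM in clone1 (median 5.03), against 0.487, 0.165 and 0.643 CPM in Scrambled, with a clone2 mean of 1.96 CPM (log2 difference 1.32 ± 0.31). Dner, a Notch ligand known from neurons, had 9.13 to 17.7 CPM in clone1 (median 14.2), against 1.95, 1.15 and 1.499 CPM in Scrambled. With shControl in place of Scrambled, 7 genes met the rule, and of the 16 Abcc2 had a shControl mean at or above its lowest clone1 library (6.69 CPM in that clone1 library, against a mean of 7.83 CPM in shControl). Its difference from shControl was 1.02, which did not pass (edgeR adjusted p = 0.0683).

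Hair-type keratins formed the list with the largest median change. Of 16 genes, 15 were in the table and 12 were tested, 11 of them higher and none lower, with a median of 2.76. In 11 of the 12 every clone1 library lay above every Scrambled library, which held for 5.19% of all genes tested. Higher genes made up 6.37% and lower genes 7% of all genes tested. Among the 12, at least Krt31, Krt32, Krt84 and Krt87 were too low in Scrambled for the filter. They were tested only because clone1 was high enough, so these counts and the median rest partly on them. Keratin genes share sequence with neighbouring copies, so reads may be split among them and single values are uncertain. Krt84 had 10.5 to 23.4 CPM in clone1 (median 14.9), against 1.70, 3.13 and 0.428 CPM in Scrambled (3.05 ± 0.37, edgeR adjusted p = 1.67e-06), Krt36 had 16.2 to 47.1 CPM in clone1 (median 33.0), against 5.36, 5.76 and 3.43 CPM in Scrambled (2.71 ± 0.31, edgeR adjusted p = 1.95e-06) and Krt34 had 30.7 to 91.4 CPM in clone1 (median 38.6), against 6.57, 8.89 and 7.92 CPM in Scrambled (2.82 ± 0.47, edgeR adjusted p = 0.00215). Clone2 was higher than clone1 in 9 of the 12 and lower in 2, Krt84 and Krt87. Against shControl, the differences of Krt31, Krt32, Krt34, Krt81 and Krt87 were 0.80 to 1.13 and did not pass. Of 20 squamous genes tested, 9 were higher and none lower (median 0.56), led by Krt15 (3.77 ± 0.37, edgeR adjusted p = 1.13e-07), a keratin of basal cells. Krt15 too was tested only because clone1 was high enough for the filter. Sprr2b and Sprr2h, proteins of the cornified envelope with close copies, were also higher (2.76 ± 0.63, edgeR adjusted p = 0.00386, and 2.55 ± 0.36, edgeR adjusted p = 1.62e-05), and leaving out Scrambled replicate 2 ended the call of Sprr2b (edgeR adjusted p = 0.0512).

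Further large rises were those of Rnase1, Psors1c2 and Lrrc19. Rnase1, a secreted ribonuclease, had 42.5 to 87.0 CPM in clone1 (median 73.6), against 7.79, 9.54 and 12.0 CPM in Scrambled, without overlap (2.80 ± 0.22, edgeR adjusted p = 1.56e-09). Psors1c2 had 12.7 to 35.5 CPM in clone1 (median 20.36), against 2.92, 2.96 and 2.998 CPM in Scrambled (2.88 ± 0.39, edgeR adjusted p = 3.02e-05). Against shControl Psors1c2 stood at 1.27 and did not pass (edgeR adjusted p = 0.164). Lrrc19, a leucine-rich repeat receptor of kidney and gut epithelium, had 7.77 to 16.99 CPM in clone1 (median 12.7), against 2.68, 1.65 and 1.71 CPM in Scrambled (2.65 ± 0.33, edgeR adjusted p = 3.06e-06). Lrrc19 was nearly absent from clone2, with a mean of 0.114 CPM, and clone1 exceeded clone2 by 6.41 ± 0.38 (edgeR adjusted p = 9.59e-17).

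Among the largest falls beyond the strongly reduced genes were Tmem159, Ccl5, Icam1, Mier2, Cidea, Dnajc15 and Upp1. Tmem159, which encodes a protein that seeds lipid droplets, had 2.31 to 5.68 CPM in clone1 (median 3.59), against 22.4, 17.1 and 23.6 CPM in Scrambled, and the difference was -2.39 ± 0.24 (edgeR adjusted p = 1.01e-07). Clone2 moved the other way, with a mean of 66.2 CPM and a clone difference of -4.11 ± 0.15 (edgeR adjusted p = 5.68e-23). Dnajc15, a cochaperone of the mitochondrial inner membrane, had 15.4 to 29.6 CPM in clone1 (median 23.6), against 90.1, 98.6 and 83.5 CPM in Scrambled, without overlap (-2.02 ± 0.15, edgeR adjusted p = 3.73e-10). The chemokine Ccl5 had 3.71 to 8.38 CPM in clone1 (median 5.96), against 25.8, 28.8 and 26.8 CPM in Scrambled (-2.22 ± 0.22, edgeR adjusted p = 5.88e-08), and Icam1, an adhesion receptor for leukocytes, had 1.19 to 8.38 CPM in clone1 (median 4.32), against 19.5, 29.8 and 11.1 CPM in Scrambled (-2.15 ± 0.33, edgeR adjusted p = 8.11e-05). Upp1, a uridine phosphorylase, had 1.20 to 5.83 CPM in clone1 (median 3.95), against 17.8, 13.7 and 19.9 CPM in Scrambled (-1.97 ± 0.25, edgeR adjusted p = 3.06e-06). Mier2 fell by 2.09 ± 0.32 (edgeR adjusted p = 0.000426) and did not pass with the replicate block (-1.64, edgeR adjusted p = 0.155) or with clone1 replicates 7 to 9 alone (-2.01, 0.0934).

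A last group of genes changed in clone1 while clone2 stayed within 0.5 of Scrambled on the log2 scale. They were picked for that pattern, so their values are a description. Cyp2b10, a P450 induced by drugs, had 7.34 to 20.7 CPM in clone1 (median 14.4), against 3.16, 4.11 and 2.14 CPM in Scrambled, and a clone2 mean of 3.97 CPM. Syt7, a calcium sensor of membrane fusion, had 9.24 to 17.1 CPM in clone1 (median 12.2), against 6.57, 3.78 and 2.78 CPM in Scrambled, with a clone2 mean of 3.62 CPM. The chemokine Ccl27a had 5.99 to 28.0 CPM in clone1 (median 16.8), against 7.79, 6.09 and 8.14 CPM in Scrambled, with a clone2 mean of 5.31 CPM. In the other direction, Cidea, a lipid droplet protein, had 1.20 to 8.17 CPM in clone1 (median 4.19), against 15.6, 22.05 and 21.8 CPM in Scrambled, with a clone2 mean of 19.9 CPM. Tmem176b, a membrane protein, had 38.2 to 75.5 CPM in clone1 (median 53.1), against 168, 188 and 151 CPM in Scrambled, with a clone2 mean of 214 CPM. Tmed3, a cargo receptor of the early secretory pathway, had 16.8 to 32.5 CPM in clone1 (median 26.3), against 92.3, 107 and 85.5 CPM in Scrambled, with a clone2 mean of 78.5 CPM. Among these 6 genes, clone1 and Scrambled libraries overlapped for Ccl27a and for no other. Dynlt2b, Hoxa11os and Hyi met the same rule for lower genes, at -1.75, -1.73 and -1.32 against Scrambled. Zscan4c met it for higher genes at 1.75, with edgeR adjusted p = 0.144 without Scrambled replicate 1 and 0.127 without Scrambled replicate 3.

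The genes of chromosomes 1, 4 and 9 were lower in clone1 as groups. All 20 chromosomes (the autosomes and X) were compared, and these 3 were singled out after their values had been seen. Of 669 tested genes on chromosome 4, 123 were lower and 10 higher (median -0.26). Chromosome 9 held 124 lower and 11 higher genes of 610 (median -0.24), and chromosome 1 held 93 lower and 26 higher of 611 (median -0.16). The other chromosomes had medians from -0.0020 to 0.13. Chromosomes 1, 4 and 9 together held 1890 genes, 17.5% of those tested, with 45.0% of all lower calls (340) and 6.83% of all higher calls (47). Elsewhere the median was 0.062, and 634 genes rose while 414 fell.

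The shift was present in every clone1 library. For each library, the median over a chromosome's genes of log2(CPM + 0.5), centred by gene and by library, was taken, using genes whose mean log2 CPM reached 3. On chromosome 4 it was -0.072 ± 0.012 in clone1 and 0.191 ± 0.012 in Scrambled (SD, n = 9 and n = 3). On chromosome 9 it was -0.063 ± 0.015 in clone1 and 0.189 ± 0.013 in Scrambled, and on chromosome 1 it was -0.034 ± 0.018 in clone1 and 0.131 ± 0.030 in Scrambled. The lines did not overlap on any of the 3. A two-sided exact permutation test over libraries gave 0.00455 for each, the smallest p that 220 splits allow, and 0.00909 after Benjamini-Hochberg adjustment over the 20 chromosomes. The same smallest p was reached by 10 of the 20, of which 7 were higher in clone1, and centring by library makes the chromosomes depend on one another.

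Relative to Scrambled, with the 34 libraries scaled together, the chromosome 4 median lay between -0.293 and -0.245 in clone1, between -0.016 and 0.026 in clone2 and between -0.039 and 0.061 in shControl. On chromosome 9 it lay between -0.294 and -0.211 in clone1, between -0.087 and 0.0038 in clone2 and between -0.054 and 0.0081 in shControl. On chromosome 1 it lay between -0.212 and -0.127 in clone1, between -0.080 and 0.025 in clone2 and between -0.0047 and 0.093 in shControl. No clone1 library overlapped a library of either line.

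Along chromosomes 4 and 9 every window of 20 Mb had a negative median. On chromosome 4 the 8 windows ran from -0.41 to -0.21, and on chromosome 9 the 7 windows ran from -0.53 to -0.12. On chromosome 1 the windows from 140 to 160 and from 160 to 180 Mb stood at 0.0058 and 0.045, whereas the other 8 ran from -0.28 to -0.15. Degs1 lies in the window from 180 to 200 Mb, where 14 of 64 genes were lower and none higher (median -0.17). DNA copy number was not measured, and its part in these values was not tested.

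**Figure D4:**
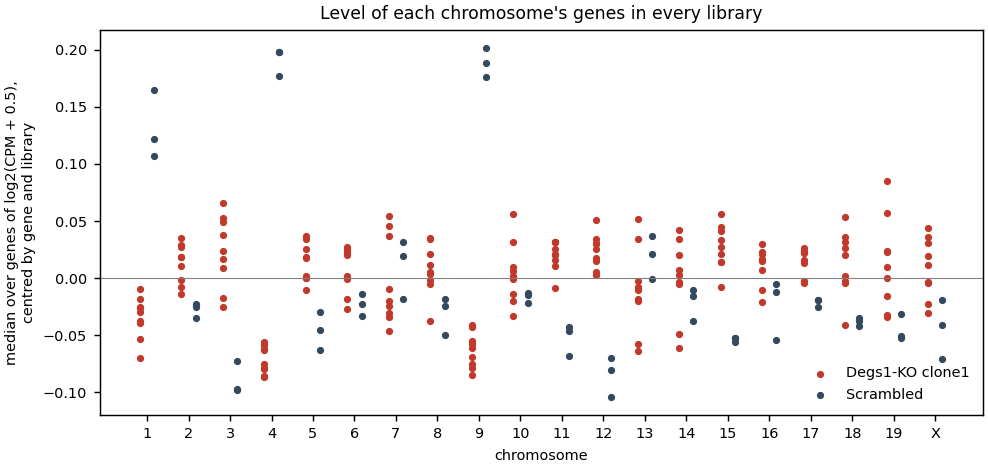
Median over the genes of each chromosome of log2(CPM + 0.5), centred by gene and by library, with 1 point a library (clone1 in red, Scrambled in grey). Clone1 lies below Scrambled without overlap on chromosomes 1, 4 and 9, with clone1 means of -0.034, -0.072 and -0.063.

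Lists with lower members were read with this shift beside them. Of 26 genes of G2 and mitosis tested, 6 were lower and none higher (median -0.32), and 3 of the 6 (Ccnb2, Kif23 and Cenpf) lie on chromosomes 1 and 9. Chromosomes 1, 4 and 9 hold 5 of these 26 genes. Ccnb2, a mitotic cyclin, had 26.4 to 57.3 CPM in clone1 (median 44.1), against 80.8, 94.1 and 73.9 CPM in Scrambled (-0.94 ± 0.16, edgeR adjusted p = 0.000141). Cenpa, the centromeric histone, on chromosome 5, had 40.8 to 65.3 CPM in clone1 (median 50.8), against 81.6, 105 and 66.6 CPM in Scrambled (-0.71 ± 0.15, edgeR adjusted p = 0.00143), a call that ended when Scrambled replicate 2 was left out (-0.52, edgeR adjusted p = 0.0625). All 26 values were negative. Of 28 S phase genes, 3 were lower and none higher, a share near the 7% lower among all genes, and 2 of the 3, the helicase subunits Mcm3 and Mcm6, lie on chromosome 1. Chromosomes 1, 4 and 9 hold 3 of these 28 genes. Mcm6 did not pass when any 1 Scrambled library was left out (edgeR adjusted p from 0.0552 to 0.126), nor Mcm3 without Scrambled replicate 1 (0.0623). Clone1 was higher than clone2 in 18 of the 26 mitotic genes and lower in 2, and higher in 24 of the 28 S phase genes and lower in 1, against 25.5% higher and 23.6% lower among all genes.

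Some genes of the integrated stress response and of protein folding in the endoplasmic reticulum were lower. Most of these lie off chromosomes 1, 4 and 9, as do most tested members of both lists. Of 23 stress response genes tested, 7 were lower, none was higher and 16 did not pass (median -0.54), against 7% lower and 6.37% higher among all genes. All 7 lie elsewhere, as do 22 of the 23 tested. Psph, the last enzyme of serine synthesis, had 41.1 to 100.4 CPM in clone1 (median 57.5), against 168, 160.3 and 153 CPM in Scrambled, without overlap (-1.25 ± 0.24, edgeR adjusted p = 0.00328). Slc3a2, the heavy chain of amino acid exchangers, had 68.3 to 112 CPM in clone1 (median 79.1), against 127, 206 and 136 CPM in Scrambled, also without overlap (-0.87 ± 0.15, edgeR adjusted p = 0.000237). With clone1 replicates 7 to 9 alone Slc3a2 stood at -0.62 and did not pass (edgeR adjusted p = 0.0985). Ddit3, the stress factor CHOP, had 43.1 to 91.0 CPM in clone1 (median 53.9), against 89.8, 90.2 and 91.0 CPM in Scrambled (-0.69 ± 0.15, edgeR adjusted p = 0.00224). Of 20 folding genes, 6 were lower, none was higher and 14 did not pass (median -0.33). Of the 6, 5 lie elsewhere, as do 17 of the 20 tested. Hspa5, the main chaperone of this compartment, had 302 to 552 CPM in clone1 (median 419.7), against 653, 726 and 718 CPM in Scrambled, without overlap (-0.68 ± 0.13, edgeR adjusted p = 0.000938). Manf, a secreted stress factor on chromosome 9, had 50.3 to 90.9 CPM in clone1 (median 67.2), against 118, 120.3 and 121 CPM in Scrambled (-0.81 ± 0.14, edgeR adjusted p = 0.000155).

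Around Degs1, some genes of the ceramide pathway changed. Of 13 synthesis genes tested, 2 were higher (Degs2 and Cers6) and 2 lower (Degs1 itself and Ormdl1), against 6.37% higher and 7% lower among all genes. Degs2, the related desaturase that also makes phytoceramide, had 325 to 447 CPM in clone1 (median 415), against 249.8, 249 and 298 CPM in Scrambled, without overlap (0.60 ± 0.10, edgeR adjusted p = 0.000193), and was higher in clone1 than in clone2 by 0.86 ± 0.081 (edgeR adjusted p = 2.58e-11). Cers6, a ceramide synthase, rose by 0.58 ± 0.19 (edgeR adjusted p = 0.043) and did not pass when any 1 Scrambled library was left out (edgeR adjusted p from 0.121 to 0.206). Ormdl1, a regulator of the first enzyme of the pathway, lay lower with 21.6 to 37.1 CPM in clone1 (median 29.4), against 46.7, 46.7 and 45.6 CPM in Scrambled (-0.60 ± 0.15, edgeR adjusted p = 0.00663), and it and Degs1 lie on chromosome 1. Of 22 genes of ceramide use and breakdown, 4 were higher, among them Acer1, Acer3 and B4galt6, and 1 lower (Acer2, on chromosome 4). The alkaline ceramidase Acer1 had 7.10 to 14.6 CPM in clone1 (median 9.84), against 5.11, 4.44 and 4.50 CPM in Scrambled, without overlap (1.14 ± 0.28, edgeR adjusted p = 0.00625). With clone1 replicates 7 to 9 alone Acer1 stood at 0.82 and did not pass (edgeR adjusted p = 0.0769). Acer2 did not pass without Scrambled replicate 1 or 2 (edgeR adjusted p = 0.116 and 0.0542), and B4galt6 did not pass when any 1 Scrambled library was left out (0.0689 to 0.165).

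Revival and fetal-like genes, the state that regenerating colon epithelium enters, moved in both directions. Of 22 tested, 6 were higher and 3 lower (median 0.21), against 6.37% higher and 7% lower among all genes. Emp1, also on the absorptive colonocyte list, is among the 6. Il1rn, the interleukin 1 receptor antagonist, had 359.9 to 516 CPM in clone1 (median 427), against 248, 251 and 237 CPM in Scrambled, without overlap (0.78 ± 0.11, edgeR adjusted p = 2.17e-05), and the complement regulator Cd55 had 40.1 to 78.8 CPM in clone1 (median 60.4), against 31.4, 27.8 and 26.3 CPM in Scrambled (1.02 ± 0.19, edgeR adjusted p = 0.000385). Il1rn did not pass in the fit of 21 libraries (edgeR adjusted p = 0.0939). Clu, a marker of revival stem cells, was lower with 2.31 to 5.66 CPM in clone1 (median 3.59), against 10.5, 8.56 and 11.6 CPM in Scrambled (-1.48 ± 0.30, edgeR adjusted p = 0.00111). Of 13 targets of YAP tested, Crim1 rose (1.76 ± 0.32, edgeR adjusted p = 0.000481), F3 fell (-0.66 ± 0.17, edgeR adjusted p = 0.00841) and 11 did not pass, shares near those of all genes. F3 did not pass without Scrambled replicate 3 (-0.61, edgeR adjusted p = 0.0535) and stood at 0.12 against shControl.

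**Figure D5:**
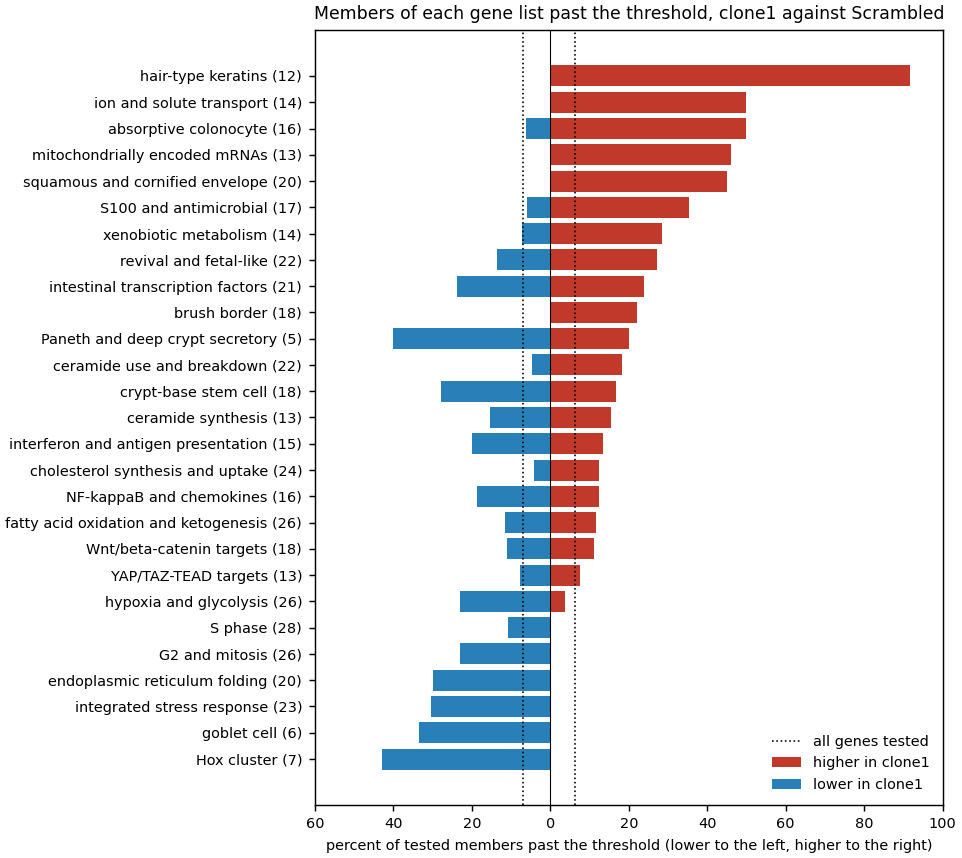
Percent of the tested members of each gene list that were past the threshold, higher in clone1 to the right in red and lower to the left in blue, with the number tested in brackets and dotted lines at the shares of all genes tested (6.37% higher and 7% lower). Hair-type keratins, ion and solute transport and absorptive colonocyte genes have the largest shares of higher members, and stress response, folding and mitosis genes have lower members alone.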

How the data were processed

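Poly(A)-selected, strand-specific RNA libraries were sequenced, per the labels' protocols. The deposited table holds expected counts per gene, whole numbers not scaled between libraries, which the authors made with Salmon 1.3.0 on mm10, per the submitters' processing notes. How transcripts were summed to genes is not given in the sources used here. Of 54354 genes, 29742 had no count, and 1243 rows that lack a gene name took up no more than 0.0475% of any library. Positions came from GENCODE M21, which held 51528 of the IDs.

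Low genes were removed by filterByExpr with a minimum count of 10 and a minimum total of 15. This filter keeps a gene that is high enough in 1 line alone. Cyp2c65, Pyy and several strongly reduced or gained genes entered the test in that way. Libraries were scaled by TMM, and edgeR 4.0.16 in R 4.3.3 fitted a robust quasi-likelihood model, whose two-sided p-values were adjusted by Benjamini-Hochberg. Clone1 against Scrambled was fitted on 12 libraries, with no block and a common biological coefficient of variation of 0.202. Clone1 against clone2 and clone2 against Scrambled came from 1 fit of 21 libraries. Levels of single genes in clone1 and Scrambled come from scaling the 12 libraries, and those in clone2 and shControl from scaling all 34. The effective totals of clone1 and Scrambled differ by -7.54% to -4.27% between these scalings, 12 libraries against 34. Summed list levels used the unscaled totals. The steps were tested on simulated data.

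Members and gene lists were chosen with earlier results of these data known. Genes were named by rule: Degs1, the 12 largest changes among the strongly reduced and the strongly gained genes, the 10 largest rises and falls among genes whose mean log2 CPM reached 3, up to 4 members of each list, all absorptive colonocyte genes, and 8 genes each way that set clone1 apart from clone2. Other genes were named after their values were seen. Some genes that the rule names are not reported here; they stay in the counts of their lists. The alternatives tried were DESeq2 1.42.0, its size factors within edgeR, all genes unfiltered, a threshold of 0.01, all 21 libraries in 1 fit, the replicate block, leaving out libraries, clone1 replicates 1 to 6 or 7 to 9 alone, and shControl in place of Scrambled. The counts without chromosomes 1, 4 and 9 were added after seeing the data.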

Additional observations from a re-analysis of the deposited data

Results flagged for a closer look

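In 11 of 153 genes examined, 1 clone1 library stood far from the other 8, by the gap to its nearest neighbour relative to the whole range. The cutoff flags about 1 gene in 20 where the 9 values come from 1 normal distribution. Levels near the floor in libraries of unequal depth do not meet that condition, so the rate expected here is not known. In 9 of the 11 it was replicate 2, the shallowest library, with 1.20 CPM for Asrgl1, 9.58 for Bex1, 4.79 for Ociad2, 1.20 for Upp1, 3.59 for Ptgs1, 50.3 for Dkk2, 91.0 for Ddit3, 16.8 for Acer2 and 29.9 for Zscan4c. In the other 2 it was replicate 7, with 1.47 CPM for Trim35 and 2.52 for Tstd1. The part of depth in these values was not tested.

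Among the absorptive colonocyte genes, 5 were higher in clone1 and lower in clone2, each against the same Scrambled libraries, and the difference between the clones was tested in edgeR. Clone1 exceeded clone2 by 6.14 for Cyp2c55, 4.20 for Muc13, 3.73 for Krt20, 3.66 for Muc3 and 1.07 for Emp1 on the log2 scale.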

How the results depend on the processing

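The 1444 calls against Scrambled became 705 at a threshold of 0.01 (315 higher and 390 lower). They ranged from 699 to 1683 when 1 library was left out, a Scrambled one or the shallowest clone1 one, with 331 to 795 higher and 368 to 888 lower. Without the genes of chromosomes 1, 4 and 9, an alternative chosen after seeing the data, 416 genes were lower. With clone1 replicates 1 to 6 alone 1073 genes were higher and 25 strongly gained, against 688 and 16, and with shControl in place of Scrambled 17 were strongly reduced and 7 strongly gained, against 27 and 16. Degs1 stood at -1.62 with the replicate block and at -1.33 without Scrambled replicate 3, and at neither did it pass; with 1 library left out it ranged from -1.82 to -1.33. Same-numbered libraries did not deviate together (r of -0.0296, 0.0839 and -0.081), so the numbers do not pair the samples. Of 152 named genes, 126 kept direction and call under the block, which compares only clone1 replicates 1 to 3 with Scrambled. In other settings 92 of 144 did so against shControl, and 151 of 152 with size factors as in DESeq2.

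Reversals were as follows. Selenbp1 stood at 0.094 with the block, 0.047 with clone1 replicates 1 to 6 and 0.73 against shControl, and between the clones from -0.0030 to 0.0030 with 1 library left out and at 0.089 with replicates 1 to 6. Lypd8 ranged from -0.085 to 0.23 with 1 library left out and stood at -0.77 with clone1 replicates 7 to 9, where Car2 stood at -0.069. Against shControl, Ceacam1 stood at 0.14, Ugt2b34 at -0.37, Agr2 at 0.49, Hpgds at -0.11, Lgr5 at 0.59, F3 at 0.12, Bambi at -0.28, Dkk2 at -0.31, Ndrg1 at 0.30 and Dapl1 at -0.052. The cause was not tested. Depth limits genes near 1 CPM, for which the shallowest clone1 library holds about 1 count.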

Other observations

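Antigen presentation genes moved in both directions in clone1. Of 15 interferon and antigen presentation genes tested, 3 were lower and 2 higher, against 7% lower and 6.37% higher among all genes. B2m, the light chain of class I molecules, had 59.2 to 89.8 CPM in clone1 (median 76.6), against 120.3, 118 and 121 CPM in Scrambled (-0.71 ± 0.13, edgeR adjusted p = 0.000396), and the heavy chain H2-D1 had 70.7 to 111 CPM in clone1 (median 90.5), against 148, 150.1 and 121 CPM in Scrambled (-0.64 ± 0.12, edgeR adjusted p = 0.000439), both without overlap. Tapbp, which loads peptide onto class I molecules, was higher with 11.9 to 20.96 CPM in clone1 (median 16.1), against 7.55, 7.73 and 10.1 CPM in Scrambled (0.97 ± 0.23, edgeR adjusted p = 0.00416). Heavy chain genes have close copies, so reads may be split among them. B2m and H2-D1 were also lower in clone1 than in clone2, with differences of -0.81 ± 0.14 (edgeR adjusted p = 2.75e-05) and -0.71 ± 0.089 (edgeR adjusted p = 1.82e-08). Tapbp did not pass with the replicate block (edgeR adjusted p = 0.0717). The alarmin Il33 was higher with 43.4 to 81.8 CPM in clone1 (median 51.6), against 24.3, 29.3 and 15.8 CPM in Scrambled (1.34 ± 0.22, edgeR adjusted p = 0.000297).

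Of 13 mitochondrially encoded mRNAs tested, 6 were higher and none lower (median 0.32), and their summed level was 29530 to 38690 CPM in clone1, against 22650 to 27220 CPM in Scrambled. For this list and those that follow, the shares among all genes tested were 6.37% higher and 7% lower. Nuclear copies of the mitochondrial genes make single values uncertain. The largest was mt-Atp6, a subunit of the ATP synthase, with a difference of 0.84 ± 0.11 (edgeR adjusted p = 5.98e-06). Of 26 genes of fatty acid oxidation and ketogenesis, 3 were higher and 3 lower, with Eci2, an isomerase of unsaturated fatty acids, at 21.4 to 31.1 CPM in clone1 (median 24.9), against 55.8, 62.4 and 51.0 CPM in Scrambled (-1.19 ± 0.14, edgeR adjusted p = 1.17e-06). Of 24 cholesterol genes, 3 were higher and 1 lower, led by Srebf2, the factor that drives the pathway, with 240.1 to 380.5 CPM in clone1 (median 352), against 219, 205 and 167 CPM in Scrambled (0.73 ± 0.13, edgeR adjusted p = 0.000422). Of 26 hypoxia and glycolysis genes, 6 were lower and 1 higher, and 3 of the 6 (Car9, Eno1 and Pkm) lie on chromosomes 4 and 9. Chromosomes 1, 4 and 9 hold 5 of these 26 genes.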
